A study of Equus caballus with 37 samples.

Results

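The blood transcriptome of Arabian horses was compared between the end of the intense gallop phase in May, before the first races (T2), and the end of the racing season in October (T3). The comparison used every library whose sample title begins with T2 or T3, which were 11 and 8 libraries, or 19 of the 37 in the series. All horses were 3 years old and in race training, and no other treatment is given for either group. T2 held 4 mares and 7 stallions, and T3 held 4 mares and 4 stallions. Blood was drawn from the jugular vein into tubes that stabilise RNA, before the training of that day. The question was which transcripts change between peak preparation and the close of racing. The horses were followed over the year, but the labels tie no library to a horse, so p-values measure the spread between libraries and not change within a horse. Training, calendar season and any feeding that changes with them cannot be told apart. The study left out some samples because their horses had dropped out of training, with lameness or poor metabolic performance as reasons. T3 held fewer libraries than T2, so a difference in which horses remained cannot be told apart from these either. The libraries were sequenced in several pools, and the pools held T2 and T3 libraries unequally, including a pool of T2 but no T3 libraries. The labels tie no library to a pool, so pool was no term in the fits and its part in the results was not tested.

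Whole blood RNA comes from granulocytes, monocytes, lymphocytes, platelets and young red cells. In such a mixture, fewer cells of a type and less RNA per cell cannot be told apart. Chromatin regulators set which genes can be read, coregulators link them to DNA-bound transcription factors, and RNA-binding proteins decide how long a message lasts. Granzymes are the killing proteases of natural killer and cytotoxic T cells, and major histocompatibility complex (MHC) molecules present peptides to T cells. Training is known to shift the numbers and state of circulating leukocytes. The genes described below are those for which the study pairs a name or a protein family with an Ensembl identifier, 65 genes besides 2 reference genes of its qPCR. The study picked most of them on these same libraries, so their direction and the counts of DEGs in each group are not independent evidence. Expression is given as CPM, the counts scaled to a common TMM-adjusted library total, and a log2 fold change (log2FC) above 0 means higher in T3.

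The total of counts was 6871395 to 12219646 in T2 and 10505578 to 14932603 in T3, and 14543 ± 348 (SD, n = 11) and 15217 ± 374 (SD, n = 8) genes were detected. These numbers of genes are not corrected for the larger totals of T3. With libraries thinned to the smallest total, 13845 to 14323 genes were detected in T2 and 14202 to 14890 in T3. The 10 most abundant genes took 8.15% ± 0.549 of counts in T2 (SD, n = 11) and 6.93% ± 0.397 in T3 (SD, n = 8). The first principal component (PC1) of log2 CPM held 47.5% of the variance. T2 had PC1 scores from -78.8 to 5.29 and T3 had scores from 8.76 to 55.9, so that the groups did not overlap (exact permutation test, two-sided, p = 2.65e-05, adjusted p = 0.000132 over 5 library measures). T2 replicates 7, 1 and 2 lay farthest out, at -78.8, -72.7 and -50.4, and also had the lowest TMM factors of the 19 libraries, 0.850, 0.872 and 0.886. The other T2 libraries were nearer to T3. What sets these 3 libraries apart was not tested. The counts of DEGs over all genes and in each gene group are given also without them.

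**Figure D1:**
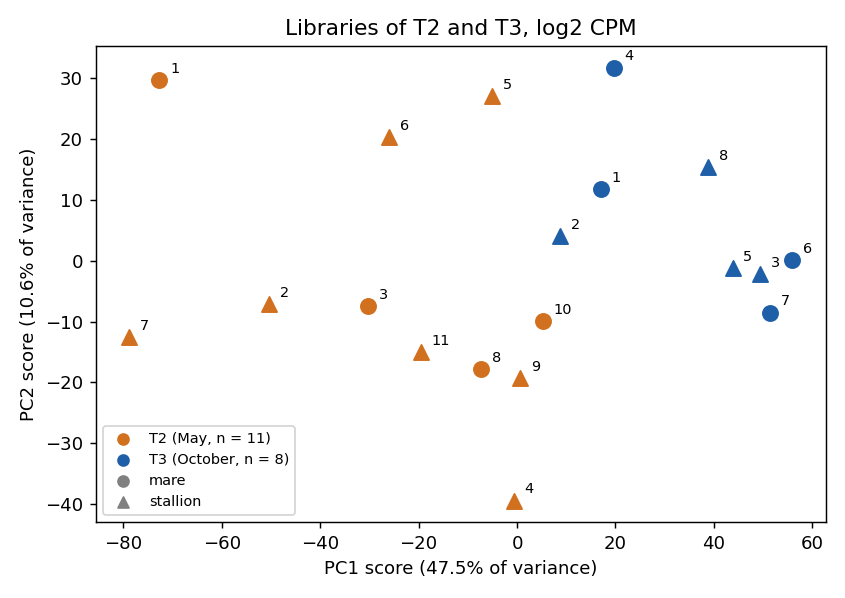
Scores of the 19 libraries on PC1 (47.5% of variance) and PC2 (10.6%) of log2 CPM, with orange for T2, blue for T3, circles for mares, triangles for stallions and the replicate number beside each point. T2 replicates 7, 1 and 2 lie at the left, and every T3 library lies to the right of every T2 library on PC1.

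Of 11599 tested genes, 5107 (44%) were differentially expressed genes (DEGs), for which the fold change had to reach 1.3 and the adjusted p-value to lie below 0.05. There were 2611 genes (22.5%) higher in T3 and 2496 (21.5%) lower, with median sizes of log2FC of 0.79 and 0.58. Large changes lay mostly on the rising side: 827 DEGs (7.13% of tested genes) reached a fold of 2 upward and 47 (0.405%) downward. Every T3 library exceeded every T2 library for 425 genes (3.66%), and the reverse held for 182 (1.57%). Without T2 replicates 1, 2 and 7 there were 3400 DEGs, 2000 higher and 1400 lower, and 508 and 24 of them reached a fold of 2. In the remaining libraries, 428 genes had all T3 values above T2 and 190 all below. These 3 libraries were often at the end of the range, since 85.6% of the genes higher in T3 had their lowest value of all 19 libraries in one of them and 85.9% of the genes lower in T3 had their highest there.

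The balance of rising and falling genes varied with expression level. Among the 3545 genes with a mean of 1 to 10 CPM, 23.5% were higher in T3 and 16.7% lower. Among the 1955 genes with 100 CPM or more, 16.8% were higher and 23.2% lower. Between 10 and 100 CPM both shares were close, 24.3% and 24.4%. The excess of falls among abundant genes depended on T2 replicates 1, 2 and 7: without them 13.6% of genes with 100 CPM or more were higher and 13.04% lower. T2 libraries also varied more among themselves: the median SD of log2 CPM was 0.364 in T2 and 0.268 in T3, and 77.8% of genes had the larger SD in T2. Without the same 3 libraries the median SD in T2 was 0.277, and 55.0% of genes had the larger SD there.

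**Figure D2:**
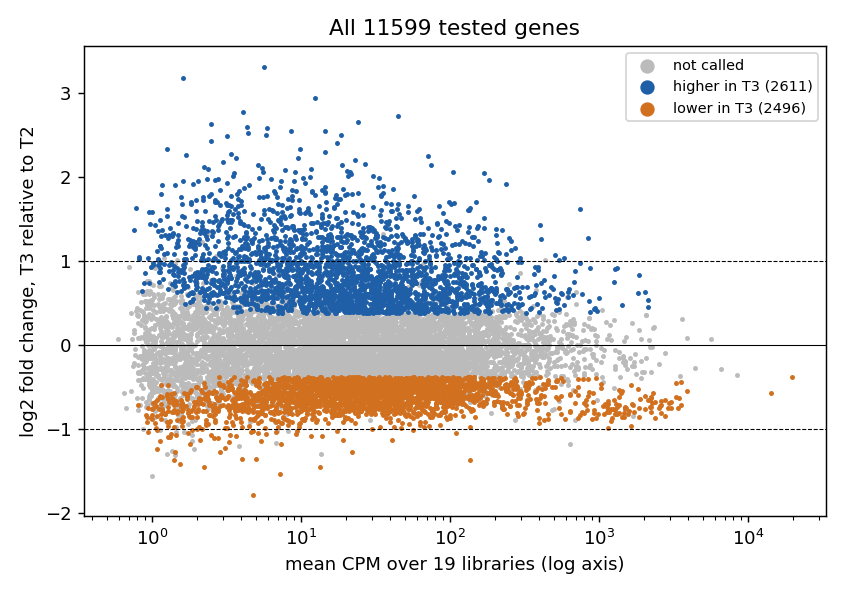
Log2FC of T3 relative to T2 against mean CPM over the 19 libraries (log axis) for the 11599 tested genes, with blue points for the 2611 genes higher in T3, orange for the 2496 lower and grey for the rest. Dashed lines mark a fold change of 2, which 827 rising and 47 falling DEGs passed.

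Some of the widest changes belonged to identifiers without a name in the sources used here. ENSECAG00000005666 ranged from 0.739 to 8.03 CPM in T2 (median 2.50) and from 8.90 to 41.5 CPM in T3 (median 27.6). The groups did not overlap, and the log2FC was 2.94 (SE 0.40, adjusted p = 5.0e-05, edgeR). Among falling genes, ENSECAG00000015671 ranged from 3.38 to 31.8 CPM in T2 (median 8.13) and from 1.72 to 5.31 CPM in T3 (median 3.56), with overlap, and its log2FC was -1.54 (SE 0.36, adjusted p = 0.0017, edgeR). ENSECAG00000004670 had a log2FC of -1.46 (SE 0.50, adjusted p = 0.020, edgeR), which depended on T2 replicate 3: without that library it was -0.90 and not a DEG.

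Of the 65 named genes, 36 were DEGs higher in T3, 15 were DEGs lower in T3 and 14 were not DEGs, beside 22.5% higher and 21.5% lower among all tested genes. The 15 falls are thus near the share of all genes that fell. The median log2FC of all 65 named genes was 0.66, beside -0.05 over all tested genes. The T3 libraries all lay above the T2 libraries in 9 of the 65 and all below in 0, beside 3.66% and 1.57% (5.23% in either direction) of all tested genes. T2 replicate 1, 2 or 7 held the lowest of the 19 values in 33 of the 36 rising genes and the highest in 12 of the 15 falling genes. Among all DEGs these shares were 85.6% and 85.9%, so the named genes are near them. Without these 3 libraries, 34 of the 36 were still DEGs in the same direction, but 6 of the 15 were. Among all genes, 3370 of the 5093 DEGs that were tested again were still DEGs. Falls were lost more than rises there too, with 2000 genes higher and 1400 lower, against 2611 and 2496 with all 19 libraries.

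**Figure D3:**
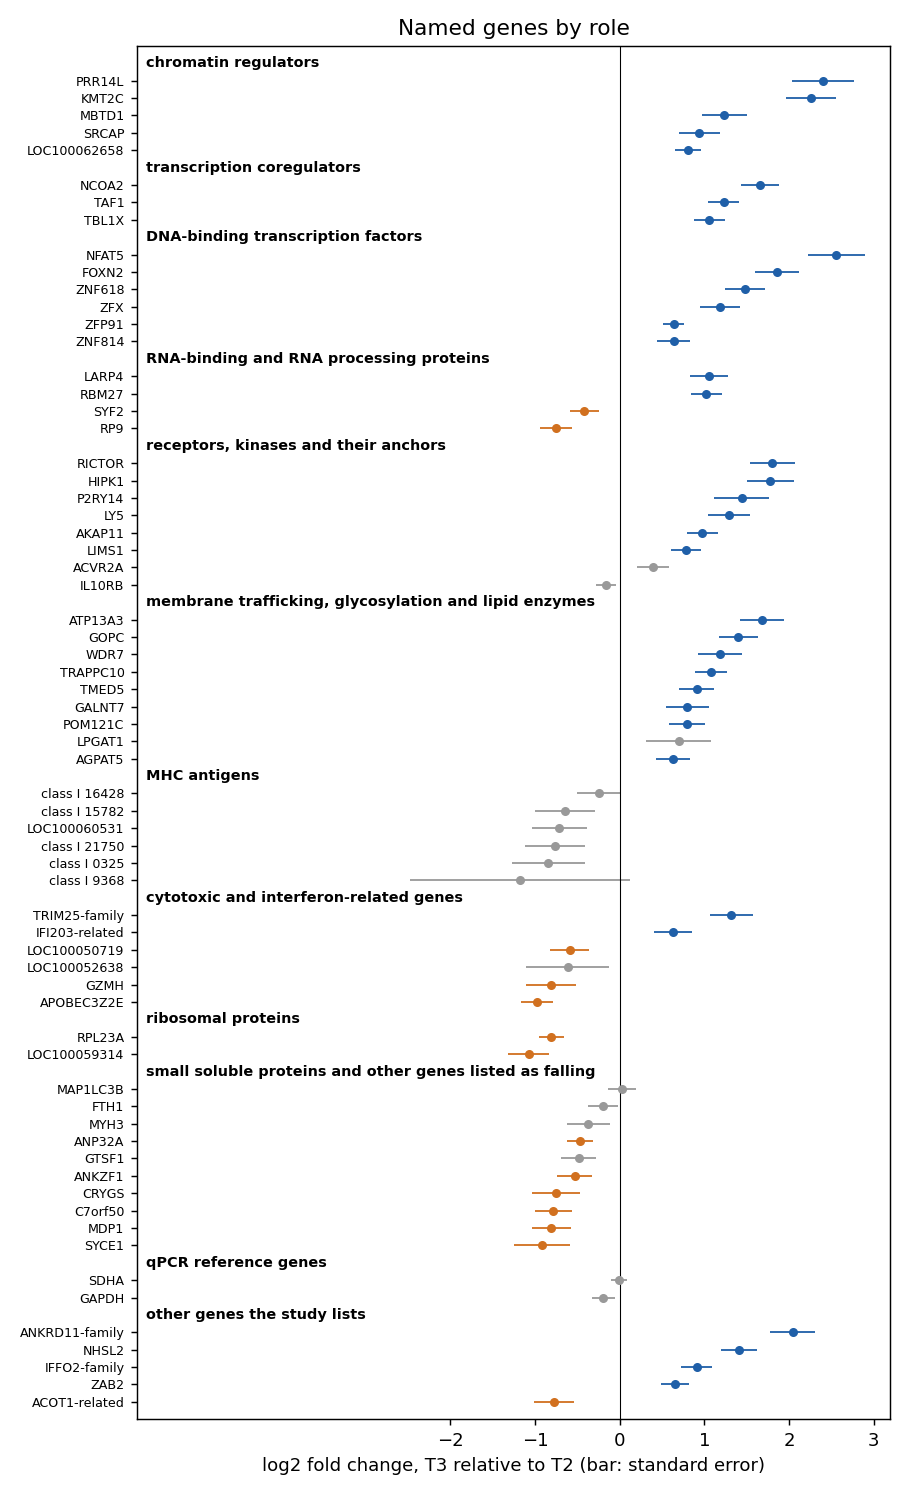
Log2FC of T3 relative to T2 with its standard error for the named genes shown, grouped by role, in blue for DEGs higher in T3, orange for DEGs lower in T3 and grey for genes that were not DEGs. All members of the chromatin, coregulator and transcription factor groups lie above 0, and 5 of the 6 MHC genes lie between -0.24 and -0.84 with a wide error for the other.

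All 5 genes grouped here as chromatin regulators were DEGs and higher in T3, beside 22.5% of all tested genes. Their median log2FC was 1.24. KMT2C, a methyltransferase of histone H3 at enhancers, ranged from 9.14 to 44.2 CPM in T2 (median 28.9) and from 58.4 to 189 CPM in T3 (median 144). The lowest T3 library was thus above the highest T2 library, and the rise was 4.78-fold (log2FC 2.26, 95% interval 1.68 to 2.83). T2 replicates 7, 1 and 2 held the lowest values, 9.14, 11.2 and 12.6 CPM. Without them the log2FC of KMT2C was 1.961 (SE 0.24, adjusted p = 4.0e-05, edgeR).

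PRR14L, a proline-rich protein, ranged from 0.616 to 11.3 CPM in T2 (median 6.22) and from 12.96 to 49.4 CPM in T3 (median 32.0), again without overlap, a 5.30-fold rise. SRCAP, the ATPase that exchanges histone H2A.Z into nucleosomes, was far more abundant, with 22.9 to 123 CPM in T2 (median 95.1) and 119 to 221 CPM in T3 (median 183), and 6 of 8 T3 libraries exceeded all of T2. Its rise was 1.92-fold (log2FC 0.94, SE 0.24, adjusted p = 0.0035, edgeR). MBTD1, a reader of methylated histones in an acetyltransferase complex, rose 2.36-fold, and LOC100062658, of the Polycomb group ring finger family, 1.75-fold. The group kept all 5 DEGs without T2 replicates 1, 2 and 7, with a median log2FC of 0.99. With the log2 TMM factor of each library as a covariate, SRCAP was not a DEG (log2FC 0.51, adjusted p = 0.058, edgeR).

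All 3 transcription coregulators were DEGs and higher in T3, beside 22.5% of all tested genes. NCOA2, a coactivator of steroid hormone receptors, ranged from 15.5 to 74.0 CPM in T2 (median 46.1) and from 83.2 to 182 CPM in T3 (median 146), with no overlap and a 3.15-fold change (log2FC 1.66, SE 0.22, adjusted p = 4.6e-05, edgeR). TAF1, the largest subunit of the general factor TFIID, ranged from 18.1 to 56.1 CPM in T2 (median 39.1) and from 58.7 to 113 CPM in T3 (median 87.3), also without overlap. TBL1X, a subunit of the NCoR corepressor complex, rose 2.09-fold and had 7 of 8 T3 libraries above all of T2. The rise thus included a coactivator and a corepressor subunit, and all 3 were still DEGs without T2 replicates 1, 2 and 7.

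The 6 DNA-binding transcription factors were all DEGs and higher in T3 (median log2FC 1.34), beside 22.5% of all tested genes. NFAT5, a factor of the response to osmotic stress that also acts in immune cells, ranged from 1.54 to 9.05 CPM in T2 (median 4.22) and from 8.99 to 55.6 CPM in T3 (median 26.6). Its 5.89-fold rise was the widest of all named genes, yet T3 replicate 2, at 8.99 CPM, lay just below the highest T2 library, replicate 10. T3 replicate 6 held the highest value. Without T2 replicates 1, 2 and 7 the log2FC of NFAT5 was 2.26.

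FOXN2, a forkhead factor, ranged from 3.34 to 14.5 CPM in T2 (median 9.53) and from 16.3 to 47.6 CPM in T3 (median 36.8). The groups did not overlap, and the rise was 3.63-fold (log2FC 1.86, SE 0.26, adjusted p = 5.9e-05, edgeR). The zinc finger proteins followed with smaller changes, 2.79-fold for ZNF618, 2.28-fold for ZFX and 1.56-fold for both ZFP91 and ZNF814. ZNF814, with 2.89 to 10.2 CPM in T2 (median 7.05) and 7.19 to 13.4 CPM in T3 (median 11.4), had the largest adjusted p of the group, 0.011 (edgeR). All 6 were still DEGs without T2 replicates 1, 2 and 7. With the TMM covariate ZNF814 was not, with a log2FC of 0.30 (adjusted p = 0.12, edgeR), nor was it with the fold threshold tested by glmTreat (adjusted p = 0.125).

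**Figure D4:**
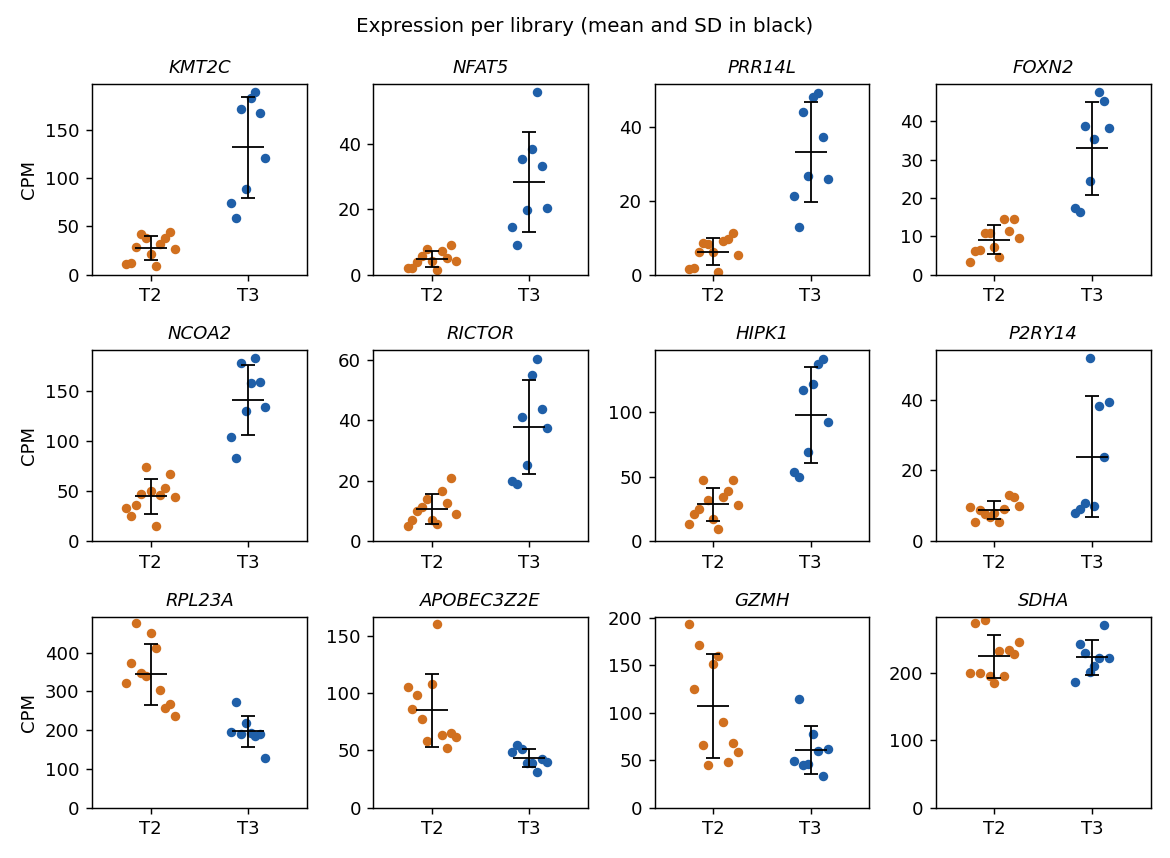
CPM of 12 named genes in each of the 11 T2 libraries (orange) and 8 T3 libraries (blue), each panel with its own linear axis from 0, and the mean with SD in black. KMT2C, PRR14L, FOXN2, NCOA2 and HIPK1 do not overlap between the groups, the T3 values of P2RY14 form a low and a high set, and the reference gene SDHA covers the same range in both.

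Genes of RNA-binding proteins moved both ways, with 2 higher, 2 lower and a median log2FC of 0.30. Among all tested genes 22.5% were higher and 21.5% lower. LARP4, which binds poly(A) tails, ranged from 4.89 to 16.9 CPM in T2 (median 9.999) and from 13.5 to 34.2 CPM in T3 (median 22.7), and RBM27, a zinc finger protein that binds RNA, changed by nearly the same factor. Their fold changes were 2.08 and 2.04. RP9, linked to pre-mRNA splicing and retinitis pigmentosa, fell from a range of 61.3 to 169 CPM (median 99.0) to one of 43.1 to 85.4 CPM (median 56.7), and 4 of 8 T3 libraries were below all of T2. Its log2FC was -0.75 (SE 0.19, adjusted p = 0.0030, edgeR) and -0.48 without T2 replicates 1, 2 and 7, where it was still a DEG. RP9 was not a DEG with all 37 libraries in the fit (-0.73, adjusted p = 0.11, edgeR), with the TMM covariate (-0.33, under the fold limit) or with glmTreat (adjusted p = 0.051). SYF2, a spliceosome subunit, was near the threshold (log2FC -0.42, SE 0.17, adjusted p = 0.045, edgeR). It was not a DEG without T2 replicates 1, 2 and 7 (-0.25), and leaving out any 1 of 11 libraries (T2 replicate 1, 2, 5, 6, 7 or 8, or T3 replicate 3, 5, 6, 7 or 8) also ended the call, with log2FC from -0.42 to -0.33.

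Of 8 receptors, kinases and their anchors, 6 rose, 0 fell and 2 did not pass, with a median log2FC of 1.14. Among all tested genes 22.5% rose and 21.5% fell. RICTOR, the defining subunit of the kinase complex mTORC2, which activates AKT, ranged from 4.89 to 21.0 CPM in T2 (median 10.1) and from 18.95 to 60.5 CPM in T3 (median 39.2). The groups overlapped narrowly, and the rise was 3.50-fold (log2FC 1.81, SE 0.27, adjusted p = 9.5e-05, edgeR). HIPK1, a nuclear kinase that phosphorylates homeodomain factors, did not overlap, with 9.14 to 47.7 CPM in T2 (median 27.7) and 49.6 to 141 CPM in T3 (median 105). AKAP11, an anchor of protein kinase A, rose 1.97-fold. LIMS1, an adaptor of integrin-linked kinase, rose 1.72-fold. Each of the pair had 7 of 8 T3 libraries above all of T2, and all 6 rises of the group remained DEGs without T2 replicates 1, 2 and 7.

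Among the receptors, LY5 (lymphocyte antigen 75, an endocytic receptor of dendritic cells) rose 2.45-fold. P2RY14, the receptor for UDP-glucose, ranged from 5.39 to 13.01 CPM in T2 (median 8.85) and from 8.05 to 51.7 CPM in T3 (median 17.3). In T3 replicates 4, 6, 7 and 8 it had 51.7, 38.3, 23.7 and 39.3 CPM, above all of T2. The other 4 T3 libraries, at 8.05, 8.99, 10.1 and 10.9 CPM, lay inside the T2 range. The log2FC of P2RY14, 1.44 (SE 0.32, adjusted p = 0.0012, edgeR), rests on 4 of the 8 T3 libraries. ACVR2A, an activin receptor, had 0.40 (SE 0.19, adjusted p = 0.081, edgeR) and was a DEG without T2 replicate 11 (0.48) or T3 replicate 2 (0.46). IL10RB, the shared chain of interleukin-10 family receptors, had -0.16 (95% interval -0.39 to 0.07).

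Primers that the study designed for qPCR of a few of these genes are shown because they are the sequences that the study pairs with these identifiers. They were not aligned here. They are given 5′ to 3′ in lower case, forward before reverse. By the counts, these genes are a transcription factor without overlap, a receptor with a split T3 group, a rising RNA-binding protein and a falling crystallin. In the qPCR that the study reports, only P2RY14 among them differed significantly between T2 and T3.
FOXN2 forward: tttgctactgcaccaacagg
FOXN2 reverse: tgcaggagaagcaaaaggtt
P2RY14 forward: agcaaactcctgtcggtgat
P2RY14 reverse: gtttgaggctttgtgccact
LARP4 forward: caaagccatcgaggacaaat
LARP4 reverse: tctcgtaatggctgcacaag
CRYGS forward: ctgaacaccagcattggatg
CRYGS reverse: catgatggaagggcaatctt

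Of 9 genes of membrane trafficking, glycosylation and lipid synthesis, 8 rose and 1 did not pass (median log2FC 0.91). Among all tested genes 22.5% rose. ATP13A3, a P-type ATPase of polyamine transport, ranged from 9.12 to 38.9 CPM in T2 (median 23.4) and from 33.1 to 121 CPM in T3 (median 71.2), a 3.21-fold rise with 7 of 8 T3 libraries above all of T2. TRAPPC10, a subunit of a Golgi tethering complex, ranged from 13.01 to 42.2 CPM in T2 (median 34.8) and from 44.1 to 81.6 CPM in T3 (median 72.4). It was the only member of the group without overlap, although its change was 2.11-fold. GOPC, a Golgi scaffold, rose 2.64-fold, WDR7, a partner of the vacuolar proton pump, 2.27-fold, and TMED5, a cargo receptor of early secretion, 1.88-fold. GALNT7, of an enzyme family that starts mucin-type O-glycans, and POM121C, a nuclear pore protein, each rose 1.74-fold. GALNT7 was not a DEG with the TMM covariate (log2FC 0.42, adjusted p = 0.17, edgeR), and neither was with glmTreat (adjusted p = 0.084 for GALNT7 and 0.051 for POM121C). Without T2 replicates 1, 2 and 7 there were 7 DEGs in the group.

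The lipid enzymes changed least. AGPAT5, which makes phosphatidic acid, ranged from 2.11 to 5.65 CPM in T2 (median 3.91) and from 4.10 to 8.34 CPM in T3 (median 6.22), a 1.55-fold rise. Without T2 replicates 1, 2 and 7 it was no longer a DEG, with a log2FC of 0.53 (SE 0.21, adjusted p = 0.052, edgeR). LPGAT1, an acyltransferase of phosphatidylglycerol, spread 9.45 to 106 CPM within T2 (median 28.3) and 33.2 to 123 CPM within T3 (median 67.3). Its log2FC of 0.70 (95% interval -0.05 to 1.45) did not pass, while without T2 replicate 8, the highest of T2, it was 0.94 and a DEG.

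None of the 6 MHC genes was a DEG, beside 44% of all tested genes, although all had a log2FC below 0 (median -0.74). Without T2 replicates 1, 2 and 7, 0 were DEGs (median -0.64). The class I gene ENSECAG00000015782 ranged from 413 to 1928 CPM in T2 (median 935) and from 279 to 1632 CPM in T3 (median 636), with a log2FC of -0.65 (95% interval -1.35 to 0.04). The class I genes ENSECAG00000000325 and ENSECAG00000021750 and the class II gene LOC100060531 (DQ beta) had -0.84, -0.77 and -0.71, with adjusted p from 0.068 to 0.10 (edgeR). Each became a DEG when certain single libraries were left out. This was T3 replicate 6 for ENSECAG00000000325 (-1.08), T2 replicate 5 or 9 or T3 replicate 2 for LOC100060531 (-0.94 to -0.79), and T2 replicate 4, 10 or 11 or T3 replicate 6 for ENSECAG00000021750 (-0.92 to -0.84). ENSECAG00000015782 became one without T3 replicate 2 (-0.93).

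Class I expression was uneven between libraries of the same group. ENSECAG00000009368 had 1132 CPM or more in 4 T2 and 2 T3 libraries and 38.4 CPM or less in the other 13, with nothing between. Its log2FC of -1.18 had a 95% interval from -3.73 to 1.38. Class I genes are known for close copies, among which reads may be divided, so values of single class I genes are uncertain. Shared reads were not measured.

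Cytotoxic and interferon-related genes did not move one way: 3 of 6 fell, 2 rose and 1 did not pass (median log2FC -0.60). Among all tested genes 21.5% fell and 22.5% rose. APOBEC3Z2E, a cytidine deaminase that restricts viruses, ranged from 52.4 to 160 CPM in T2 (median 76.9) and from 30.7 to 54.5 CPM in T3 (median 41.2), and 7 of 8 T3 libraries were below all of T2. Its log2FC was -0.98 (SE 0.19, adjusted p = 0.00046, edgeR) and -0.75 without T2 replicates 1, 2 and 7, where it was still a DEG. It was the clearest fall of this group.

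GZMH, granzyme H, ranged from 45.2 to 193 CPM in T2 (median 90.3) and from 33.7 to 114 CPM in T3 (median 54.3), with wide overlap (log2FC -0.81, SE 0.29, adjusted p = 0.025, edgeR). Without T2 replicates 1, 2 and 7 it was -0.51, and without T3 replicate 7 -0.72, and in neither case was it a DEG. LOC100052638, of the granzyme H family, spread from 17.8 to 233 CPM in T2 (median 56.9) and from 4.26 to 104 CPM in T3 (median 48.6) and did not pass (log2FC -0.61, SE 0.49, adjusted p = 0.30, edgeR). LOC100050719, of the IFITM3 family of antiviral membrane proteins, fell 1.504-fold (adjusted p = 0.036, edgeR). It was not a DEG without T2 replicates 1, 2 and 7 (-0.36), nor without any 1 of 10 libraries (T2 replicate 1, 2, 5, 6 or 7, or T3 replicate 3, 4, 5, 6 or 7), where the log2FC was -0.57 to -0.52. Granzyme and IFITM copies are close in sequence, so counts may be shared among them.

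On the rising side, the TRIM25-family gene ENSECAG00000023195, a ubiquitin ligase type of antiviral signalling, ranged from 5.65 to 42.2 CPM in T2 (median 17.99) and from 30.5 to 67.8 CPM in T3 (median 52.1), a 2.49-fold rise (log2FC 1.32, SE 0.25, adjusted p = 0.00047, edgeR). ENSECAG00000014696, related to the interferon-inducible IFI203, rose 1.55-fold (adjusted p = 0.021, edgeR). The latter was not a DEG without T2 replicates 1, 2 and 7 (log2FC 0.40). It was not one without T3 replicate 3 either, with a log2FC of 0.56.

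Both ribosomal protein genes fell, beside 21.5% of all tested genes. RPL23A, of the large subunit, ranged from 237 to 475 CPM in T2 (median 341) and from 128 to 273 CPM in T3 (median 192), and 7 of 8 T3 libraries were below all of T2. The fall was 1.75-fold (log2FC -0.81, SE 0.14, adjusted p = 0.00031, edgeR), and without T2 replicates 1, 2 and 7 the log2FC was -0.76. LOC100059314, of a ribosomal protein family, was at a much lower level, 1.88 to 6.98 CPM in T2 (median 4.45) and 1.14 to 2.86 CPM in T3 (median 1.96), and fell 2.10-fold. Ribosomal protein genes have many processed copies, and reads may be divided among them.

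Of 11 further genes that the study lists as falling, mostly small soluble proteins, 7 fell, 0 rose and 4 did not pass (median log2FC -0.53). Among all tested genes 21.5% fell and 22.5% rose. C7orf50 ranged from 2.57 to 9.76 CPM in T2 (median 4.36) and from 2.52 to 3.83 CPM in T3 (median 2.98), and MDP1, a magnesium-dependent phosphatase, from 25.9 to 99.9 CPM in T2 (median 65.5) and from 20.4 to 53.4 CPM in T3 (median 34.6). Their falls were 1.72-fold and 1.75-fold. ANP32A, a phosphatase inhibitor of the nucleus, fell 1.39-fold, with 5 of 8 T3 libraries below all of T2. Without T2 replicates 1, 2 and 7, only C7orf50 of the 7 was still a DEG (log2FC -0.51, SE 0.20, adjusted p = 0.047, edgeR).

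Other falls were near the threshold, and leaving out single libraries ended the call with the sign kept. CRYGS, gamma-S crystallin of the eye lens, ranged from 2.34 to 17.1 CPM in T2 (median 11.1) and from 2.72 to 9.55 CPM in T3 (median 5.59), with a log2FC of -0.75. It was not a DEG without T2 replicate 1, 2 or 7 or T3 replicate 3, 6, 7 or 8 (-0.73 to -0.64, adjusted p 0.054 to 0.070, edgeR). SYCE1, of the synaptonemal complex of meiosis, had -0.91 and 1.47 to 6.77 CPM in T3 (median 1.77). Its call was lost without T2 replicate 3 or T3 replicate 3, 6 or 7 (-0.82 to -0.76, adjusted p 0.054 to 0.058, edgeR). ANKZF1, of ribosome quality control, had -0.53. It lost the call without T2 replicate 1, 2, 3 or 6 or T3 replicate 3, 5, 6 or 7 (-0.51 to -0.44, adjusted p 0.052 to 0.074, edgeR).

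Among the 4 that did not pass, FTH1, the ferritin heavy chain, ranged from 909 to 2057 CPM in T2 (median 1553) and from 922 to 1913 CPM in T3 (median 1290.5), with a log2FC of -0.20 (95% interval -0.54 to 0.14). MAP1LC3B, a marker of autophagosomes, had 0.03 (95% interval -0.29 to 0.35). MYH3, an embryonic muscle myosin, had -0.37, and GTSF1, of small RNA silencing in germ cells, had -0.49 (adjusted p = 0.055, edgeR). GTSF1 was a DEG in 5 of the 19 fits that left out 1 library each (without T2 replicate 8, 9, 10 or 11, or T3 replicate 2), with log2FC from -0.65 to -0.52.

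The study lists 5 genes outside these groups, of which 4 rose and 1 fell, beside 22.5% and 21.5% of all tested genes. The ANKRD11-family gene ENSECAG00000017861, of a family of chromatin-bound ankyrin proteins, ranged from 1.54 to 13.2 CPM in T2 (median 10.9) and from 20.5 to 54.6 CPM in T3 (median 42.3), with no overlap and a 4.13-fold rise (log2FC 2.05, SE 0.27, adjusted p = 4.1e-05, edgeR). NHSL2 did not overlap either, with 6.78 to 33.6 CPM in T2 (median 21.8) and 35.2 to 80.3 CPM in T3 (median 56.6). The IFFO2-family gene ENSECAG00000011016 rose 1.88-fold, and the gene printed as ZAB2 by the study rose 1.58-fold. Elsewhere the study prints ZEB2 among transcription factors, and whether both names mean the same gene was not checked. The ACOT1-related gene ENSECAG00000009756, of the acyl-CoA thioesterases, fell 1.71-fold. All 5 remained DEGs without T2 replicates 1, 2 and 7.

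Neither of the 2 qPCR reference genes was a DEG. SDHA, a subunit of succinate dehydrogenase, ranged from 186 to 279 CPM in T2 (median 228) and from 187 to 271 CPM in T3 (median 222), the same span in both groups. Its log2FC of -0.01 had a 95% interval from -0.19 to 0.18, and it was 0.02 with RLE size factors. GAPDH, a glycolytic enzyme, had 1585 ± 337 CPM in T2 (SD, n = 11) and 1388 ± 313 CPM in T3 (SD, n = 8). Its log2FC was -0.19, with a 95% interval of -0.47 to 0.08, and 7 of 8 T3 libraries lay below the T2 median. GAPDH is thus not shown to be level.

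Mares and stallions were compared because T2 held more stallions. With sex and its interaction with period in the edgeR fit, 0 of 11599 genes (0%) passed the test of a different change in the sexes, with 278 (2.4%) at an unadjusted p-value below 0.05, a smallest adjusted p of 0.858 and 1 gene by DESeq2. Within mares alone 1021 genes (8.8%) were higher in T3 and 675 (5.82%) lower, and within stallions 1759 (15.2%) were higher and 1884 (16.2%) lower. The larger numbers in stallions stand beside 11 libraries against 8 in mares.

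Among the 36 named rises, the log2FC in stallions less that in mares ran from -0.50 for P2RY14 (1.602 in mares, 1.10 in stallions) to 0.50 for RICTOR (1.51 and 2.01). POM121C had 0.52 in mares and 0.999 in stallions and SRCAP 0.69 and 1.12, while NCOA2 had a log2FC of 1.66 in mares and 1.65 in stallions, TRAPPC10 1.08 in both, and KMT2C 2.17 and 2.32. Some genes that fell or did not pass had wider gaps. GZMH had -1.47 (SE 0.43) in mares and -0.32 (SE 0.37) in stallions, with an unadjusted interaction p of 0.053 and an adjusted p of 0.9998 from edgeR. SYCE1 had -1.59 and -0.39, and LOC100052638 -1.61 and 0.11. Of the 65 genes, 0 had an unadjusted interaction p below 0.05.

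**Figure D5:**
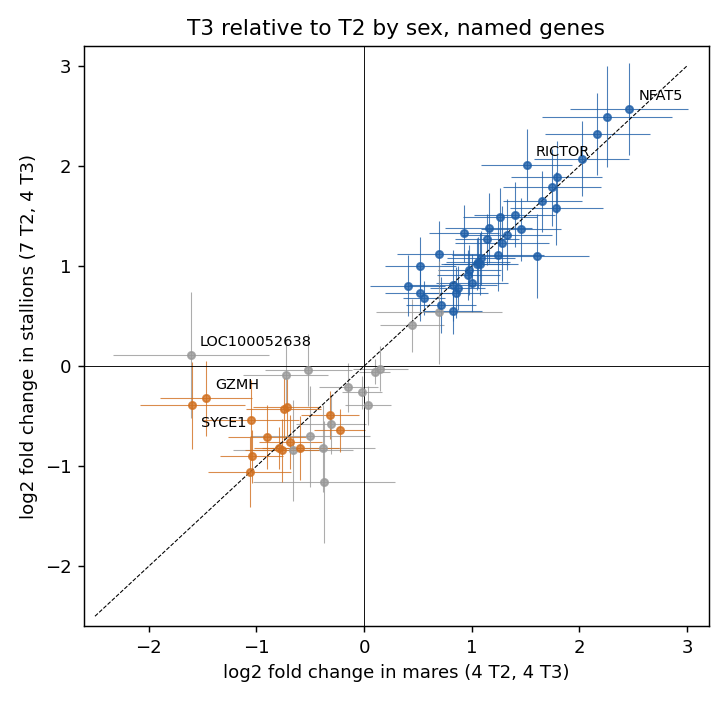
Log2FC of T3 relative to T2 in stallions (7 T2, 4 T3 libraries) against mares (4 and 4) for the named genes, with standard errors, colours as for DEGs in the comparison of all 19 libraries and a dashed line at equal change. Rising genes lie on both sides of the line, with RICTOR above it, and GZMH, SYCE1 and LOC100052638 lie off it with wide errors. ENSECAG00000009368, at -0.83 in mares and -4.91 in stallions, lies below the plotted range.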

How the data were processed

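Single-end reads of mRNA libraries from jugular blood were trimmed by the authors with Flexbar, aligned to EquCab2 with STAR 2.4.2a (Ensembl release 83) and counted per gene with RSEM 1.2.22. The deposited expected counts, rounded to whole numbers and not normalized, were used for the T2 and T3 columns only. The deposited smaller tables hold subsets of these counts and were not used.

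The filterByExpr rule on low counts left 11599 of 26991 genes, and libraries were scaled with TMM factors over the 19 libraries. T3 was compared with T2 by the quasi-likelihood F-test of edgeR 4.0.16 (R 4.3.3) with Benjamini-Hochberg adjustment over all tested genes. A standard error is log2FC, without its sign, over the square root of F, and 95% intervals extend 1.96 standard errors to each side. Library measures were compared with exact permutation tests in scipy 1.17.1. On simulated data for this comparison, with 200 changed genes among the tested ones, 72.5% were recovered and 3.33% of calls were false. The simulation drew each gene independently and changed far fewer genes than the 5107 called in the data. Its rates therefore do not carry over to those calls.

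The members and lists were chosen with earlier results of these data known. All 67 identifiers that the study names were tested. A gene of the list of falling genes enters the counts but is not reported here by itself. The rule for other names gave no named gene, so 2 rising and 2 falling identifiers were allowed, of which 1 rising is left to the plot of all genes. The reference at hand pairs no symbol with these Ensembl identifiers, so the 19 lists by symbol, among them all markers of blood cell types, and gene lengths were not used, and the tissue was not checked against markers. No pair of libraries was a duplicate (lowest chi-square per degree of freedom 14.7 over 171 pairs).

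Alternatives were DESeq2 1.42.0, RLE and upper-quartile factors, no filter, a fit of all 37 libraries, sex as a term, the replicate number as a block, libraries thinned to the smallest total, genes over 1% of counts left out, the log2 TMM factor as a covariate, other uses of the fold threshold and each library left out in turn. Leaving out T2 replicates 1, 2 and 7 together, and libraries 1 to 8 without the block, were chosen after seeing the data.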

Additional observations from a re-analysis of the deposited data

Results flagged for a closer look

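Of 76 values tested among the 8 T3 libraries, 1 stood apart from its group. SYCE1 had 6.77 CPM in T3 replicate 2, while the other T3 libraries had 1.47 to 3.71 CPM. T2 ranged from 1.87 to 9.85 CPM. Chance flags about 1 in 20 groups, so 1 of 76 is not more than chance gives. The call of SYCE1 was lost when certain other libraries were left out, as given above.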

How the results depend on the processing

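The 51 named DEGs kept their sign in every alternative run. DEGs numbered 5141 with DESeq2 (2788 higher, 2353 lower) and 5046 with RLE factors. With 1 library left out they numbered 4564 (without T2 replicate 7) to 5329 (without T2 replicate 4). There were 3400 without T2 replicates 1, 2 and 7 (1400 lower), 2965 with the TMM covariate (1154 lower), 1933 with the threshold tested by glmTreat (1320 higher, 613 lower) and 874 at a fold of 2 (827 higher, 47 lower). With all 37 libraries 1493 were lower, and the cause was not tested. With glmTreat and a fold of 2 the stricter threshold itself lowers the count. The study, with DESeq2 and the same limits on fold and adjusted p, reports far fewer DEGs between T2 and T3. Most of those it reports were higher in T3. Why the counts and their balance differ was not tested. The study lists ACVR2A, LPGAT1, GTSF1, ENSECAG00000015782 and LOC100060531 as changed between T2 and T3, but none was a DEG in the main comparison here.

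With the TMM covariate, 31 of the 36 named rises (not SRCAP, GALNT7, AGPAT5, ZNF814 and ENSECAG00000014696) and 4 of the 15 falls were still DEGs. List counts of DEGs, both directions together, fell as follows. Chromatin regulators had 3 at a fold of 2. RNA-binding proteins had 2 with all 37 libraries, the TMM covariate, glmTreat or a fold of 2. Trafficking genes had 5 with glmTreat and 4 at a fold of 2, ribosomal genes 1 at a fold of 2, and the other listed genes 3 with glmTreat and 2 at a fold of 2. Cytotoxic and interferon-related genes had 3 with all 37 libraries, 2 without T2 replicates 1, 2 and 7, with the TMM covariate or with glmTreat, 1 at a fold of 2, and 3 to 5 with 1 library left out. The falling genes had 4 with no filter, 2 with all 37 libraries, 1 without T2 replicates 1, 2 and 7, 0 with the TMM covariate, glmTreat or a fold of 2, and 3 to 8 with 1 library left out. MHC antigens had 0 to 2 with 1 library left out. The interaction test had 1 gene with DESeq2.

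The numbers in T2 and T3 titles do not pair the libraries: 5 of 8 join a mare and a stallion, and the deviations of 2 of 8 pairs correlated over 0.1. With the replicate block there were 5291 DEGs and 5 MHC genes were lower, as were 4 in the same libraries 1 to 8 without the block, where SYF2 was a DEG and with the block was not.

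Signs changed among genes that were not DEGs. SDHA had 0.019 with DESeq2, 0.018 with RLE factors, 0.027 with no filter, 0.011 with all 37 libraries, 0.012 with sex, 0.029 with the block, 0.020 in libraries 1 to 8, 0.021 without T2 replicates 1, 2 and 7, and -0.053 to 0.033 with 1 library left out. With the TMM covariate FTH1 had 0.0824, IL10RB 0.027, LOC100052638 0.18 and GAPDH 0.027. MAP1LC3B had -0.060 to 0.11 with 1 library left out. The TMM factor was higher in T3 by 0.0748 (exact permutation p = 0.042) and by 0.0624 to 0.0869 with 1 library left out, where 10 of 19 fits did not pass. Corrections for gene length were not run.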
